A study of Rattus norvegicus with 6 samples.

Results

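The genes described here encode the proteins of the nucleosome, the particle around which DNA is wound, and they were followed in the spinal cord of rats with bone cancer pain (BCP). A gene row was taken when its symbol was that of a clustered histone (Hist1h to Hist4h) or of a variant histone (H2af, H3f or H1f), or when its Gene Ontology annotation held the term nucleosome. The rule found 97 of the 30957 gene rows, 52 of them by symbol and 92 by annotation, and it used no measured value, although the group was proposed with results of this comparison known. Of the 97 rows, 40 were cluster genes with a Hist symbol, 12 were variant genes and 19 were further histone rows that lay inside the histone arrays without a Hist symbol. Another 13 were histone-like rows elsewhere in the genome, centromere protein A among them, and 13 encoded other proteins that carry the nucleosome term.

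RNA was sequenced from the lumbar enlargement, on the side of the operated leg and without meninges, of Wistar rats 14 days after surgery. For the 3 BCP libraries, living cells of the Walker 256 line, a rat mammary carcinoma kept here by passage in ascites, had been injected into the marrow cavity of the left tibia. For the 3 sham libraries, rats received heat-killed cells of the same line. Both groups therefore shared the operation and the exposure to tumour material, all rats were female by the study's methods, and the comparison concerns 1 tumour line, 1 bone and 1 time point. No source used here says whether a library came from 1 animal or a pool, so the p-values measure only the spread between these libraries.

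Replication-dependent histone genes lie in tandem arrays, have no introns, and are transcribed in S phase, when new DNA has to be packaged. Their mRNAs end in a stem-loop bound by SLBP in place of a poly(A) tail, and they are degraded when replication stops. Variant histones, such as H3.3 and H2A.Z, are made from single polyadenylated genes throughout the cell cycle and are put into chromatin independently of replication, also in neurons and other non-dividing cells. The libraries were made from RNA depleted of ribosomal RNA and not selected for poly(A), so mRNAs of both kinds could be counted.

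Promoters of 7 members are shown because both kinds of gene are represented and the members' log2FC values, given further below, covered most of their range. A RefSeq promoter (GRCr8) could be matched to 39 of the 77 members whose name was unique among the members, 18 cluster genes and 9 variant genes among them. Each line gives the 120 bases before the annotated start, read 5′ to 3′ on the strand of the gene. Capitals mark the CCAAT box, the TATA box (searched as TATAAA) and the octamer motif (searched as ATTTGCAT), each on either strand. No 2 of these matches shared a base in the stretches shown.
Hist1h2ak: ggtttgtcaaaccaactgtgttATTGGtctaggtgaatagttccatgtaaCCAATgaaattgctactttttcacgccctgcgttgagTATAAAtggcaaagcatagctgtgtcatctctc
Hist1h2bk: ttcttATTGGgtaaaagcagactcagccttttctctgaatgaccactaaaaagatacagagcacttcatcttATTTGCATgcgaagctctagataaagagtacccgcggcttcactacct
Hist1h2ah: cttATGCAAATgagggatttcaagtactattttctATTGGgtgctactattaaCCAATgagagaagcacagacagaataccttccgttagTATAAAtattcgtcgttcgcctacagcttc
Hist1h1b: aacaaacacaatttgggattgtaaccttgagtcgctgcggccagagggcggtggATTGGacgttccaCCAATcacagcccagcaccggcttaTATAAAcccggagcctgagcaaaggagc
Hist2h2ac: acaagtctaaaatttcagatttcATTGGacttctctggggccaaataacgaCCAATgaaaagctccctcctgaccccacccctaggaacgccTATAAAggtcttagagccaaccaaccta
Hist3h2ba: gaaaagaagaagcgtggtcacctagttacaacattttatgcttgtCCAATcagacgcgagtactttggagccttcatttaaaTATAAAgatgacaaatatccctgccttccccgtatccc
H2afz: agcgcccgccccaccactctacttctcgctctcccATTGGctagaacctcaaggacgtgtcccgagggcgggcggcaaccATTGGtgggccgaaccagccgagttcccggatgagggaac

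These stretches lie at chr17:47496128-47496247 (minus strand), chr17:47181941-47182060 (minus), chr17:41812258-41812377 (plus), chr17:47421755-47421874 (plus), chr2:186469227-186469346 (minus), chr10:44225301-44225420 (plus) and chr2:229028975-229029094 (plus), in the order of the lines. Over the 250 bases before the start, the CCAAT box was found in 16 of the 18 cluster promoters, or 88.9%, and in 34.0% of all 33469 promoters of the table. The TATA box stood in 12 of the 18, or 66.7%, against 12.9% of all promoters, and the octamer in 8 of the 18, or 44.4%, against 1.56%. All 8 octamers were among the 14 matched H2A and H2B genes. Of the 9 variant promoters, 5 held the CCAAT box, 0 the TATA box and 0 the octamer. These matches describe letters in a window and say nothing of whether a factor binds there.

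Across the whole table, 14908 gene rows passed the filter on low counts and were tested with edgeR's quasi-likelihood test. The filter asked for a minimum level in 3 libraries, so a row low in sham could be tested only when higher in BCP. Some of the members called higher are of this kind, as are some genes of the lists and marker sets below. Library totals ran from 11779485 to 15004290 counts. A gene was called at an adjusted p (Benjamini-Hochberg over all tested genes) under 0.05, and called with fold when its level also changed by more than 2-fold. At the adjusted p alone, 15.8% of the tested genes were higher in BCP rats and 12.1% were lower. With the fold, 6.35% were higher and 0.107% lower, and the median log2FC of all tested genes was -0.01. These shares are the background for every count of called genes below.

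Of the 97 members, 18 had no count in any library, 12 were counted but too low to test, and 67 were tested. Called members numbered 46 higher and 1 lower in BCP rats, and 36 of the 46 also passed the fold, against the background shares of 15.8%, 12.1% and 6.35%. The calls were uneven between kinds of gene. Among the tested cluster genes, 30 of 35 were higher and 27 of these passed the fold, with a median log2FC of 1.60 and a range from -0.22 to 2.83. Among the tested variant genes, 3 of 8 were higher, 0 passed the fold, and the median log2FC was 0.12. No cluster or variant gene was lower by edgeR at an adjusted or an unadjusted p under 0.05 (0 of 35 and 0 of 8), nor by DESeq2 (0 and 0), and 0 variant genes passed the fold with DESeq2. All 3 BCP libraries lay above all 3 sham libraries for 30 of the 35 cluster genes and 3 of the 8 variant genes, an ordering that held for 21.7% of all tested genes.

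Summed over all 40 rows, the cluster genes were at 295, 294 and 242 CPM (counts scaled to a common library size, with TMM factors) in the sham libraries and at 543, 848 and 704 CPM in the BCP libraries. The groups did not overlap, the second BCP library stood highest and the third sham library lowest. The means were 277 ± 30.3 and 698 ± 153 CPM (SD, n = 3 each), a ratio of 2.52, which was 2.12 without those 2 libraries. As a share of all gene counts, this was 0.0290%, 0.0291% and 0.0239% in sham and 0.0546%, 0.0863% and 0.0718% in BCP. The 12 variant rows together stood at 267, 255 and 247 CPM in sham and at 306, 316 and 304 CPM in BCP, a ratio of 1.20 with narrow spread in both groups. Of these sums, with means of 256 and 309 CPM, the 1 row H3f3b ENSRNOG00000006532 held 129 and 166 CPM. On a scale per length, FPKM (the deposited level, scaled by exon length and by sequencing depth), the cluster rows summed to 564, 566 and 451 in sham and to 1102, 1833 and 1485 in BCP. The variant rows summed to 212, 209 and 195 FPKM in sham and to 239, 250 and 252 FPKM in BCP.

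**Figure D1:**
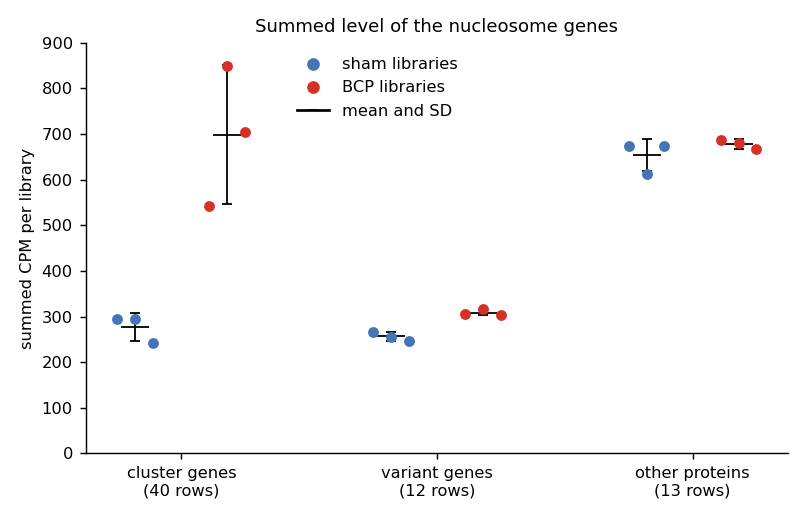
Summed CPM in each library (y axis) of the 40 cluster genes, the 12 variant genes and the 13 other proteins with the nucleosome term. Points are libraries (blue sham, red BCP), black marks are the mean and SD of 3 libraries. Cluster genes sat between 242 and 295 CPM in sham and between 543 and 848 CPM in BCP. Variant genes sat between 247 and 267 CPM in sham and between 304 and 316 CPM in BCP. The other proteins sat between 613 and 687 CPM with both groups overlapping.

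Linker histone H1, which binds the DNA entering and leaving the nucleosome, was represented by 5 cluster genes, 4 of them tested and all 4 higher. Hist1h1b (H1.5; chromosome 17, 44766313 to 44766981 on Rnor_6.0, the build of the deposited table) had 7.01, 5.72 and 4.59 CPM in sham and 24.1, 40.6 and 30.6 CPM in BCP. Its lowest BCP library was several times its highest sham library (log2FC 2.47 ± 0.24 SE, adjusted p = 0.00033). Hist1h1a, the H1.1 gene, rose from 3.50, 4.67 and 4.25 CPM to 11.7, 13.1 and 12.6 CPM. Replicates were tight in both groups (log2FC 1.58 ± 0.16, adjusted p = 2.4e-07). Hist1h1c, the H1.2 gene and the most abundant of the type, went from 34.8, 33.6 and 29.0 CPM to 50.8, 55.7 and 63.1 CPM. That change was called but stayed below 2-fold (log2FC 0.80 ± 0.09, adjusted p = 1.43e-06). Hist1h1d, the H1.3 gene, was just past the fold, with 14.4, 10.2 and 11.9 CPM in sham and 20.4, 29.0 and 25.5 CPM in BCP (log2FC 1.04 ± 0.14, adjusted p = 4.69e-05). Hist1h1t, the testis-specific linker histone, had 1 to 6 counts per library and was not tested.

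H2A forms a dimer with H2B at the outside of the histone core. Of the 10 tested H2A cluster genes 9 were higher, all 9 past the fold, with a median log2FC of 2.08. Hist1h2ak, the first promoter above, had 2.21, 1.12 and 0.810 CPM in sham and 7.43, 11.4 and 8.47 CPM in BCP. This was the largest change among the H2A genes, from a low level (log2FC 2.74 ± 0.29, adjusted p = 1.43e-06). Hist1h2ao rose from 1.3, 2.37 and 2.23 CPM to 7.01, 9.78 and 8.32 CPM (log2FC 2.08 ± 0.23, adjusted p = 7.98e-07). Hist1h2ah, whose promoter holds all 3 motifs, had 7.01, 6.07 and 3.44 CPM in sham and 15.6, 31.1 and 22.8 CPM in BCP. The BCP libraries differed among themselves by more than in the preceding genes, and the adjusted p was larger (log2FC 2.09 ± 0.39, adjusted p = 0.0175).

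Hist2h2aa2 ENSRNOG00000052555, in the chromosome 2 array, was the H2A row with the highest level. It had 62.1, 62.0 and 51.0 FPKM in sham and 124, 192 and 167 FPKM in BCP. The groups were far apart (log2FC 1.43 ± 0.17 on counts, adjusted p = 0.00124). Its second copy, ENSRNOG00000047898, had 132, 60 and 112 counts in sham and 113, 314 and 177 counts in BCP, so the groups overlapped and the difference was not called (log2FC 1.07 ± 0.49, adjusted p = 0.202). Hist2h2ac rested on few reads, 3, 3 and 6 counts in sham and 25, 22 and 15 counts in BCP, and was called (log2FC 2.45 ± 0.46, adjusted p = 0.00035). It passed the filter on low counts only through its BCP libraries. Hist1h2aa and Hist1h2af, with at most 6 counts in any library, were not tested.

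H2B was the most uneven type. Of its 9 tested cluster genes 6 were higher and 5 passed the fold, while the log2FC of single genes ran from -0.22 to 2.68. Hist1h2bk (chromosome 17, 44527421 to 44527801) had the smallest p of all members. It went from 3.20, 3.63 and 1.89 CPM in sham to 15.4, 21.8 and 18.4 CPM in BCP, with every BCP library at least several times every sham library (log2FC 2.68 ± 0.20, adjusted p = 2.28e-08). Hist1h2bl went from 0.990, 1.33 and 1.49 CPM to 4.90, 8.35 and 8.32 CPM (log2FC 2.50 ± 0.27, adjusted p = 5.07e-07). Hist1h2bg contributed the most counts of any cluster gene, with 76.3, 78.0 and 70.9 CPM in sham and 106, 142 and 117 CPM in BCP. It was called below the fold (log2FC 0.70 ± 0.10, adjusted p = 0.0012). Its row spans 9387 bases and overlaps the gene row AC130391.3, which is not a member.

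The pair of H2B genes on chromosome 10, away from the arrays, were the cluster genes with the smallest differences. Hist3h2ba had 7.54, 7.54 and 7.02 CPM in sham and 6.42, 6.43 and 6.05 CPM in BCP, so that all BCP libraries were below all sham libraries, an ordering that 19.8% of all tested genes showed. The difference was not called (log2FC -0.22 ± 0.16, adjusted p = 0.333). Its promoter above holds a CCAAT box and a TATA box, and a link between motifs and changes was not tested. Hist3h2bb had 10 to 20 counts per library and was not called either (log2FC 0.37 ± 0.37, adjusted p = 0.5). The 3 H2B cluster genes that were tested and not called were these 2 and Hist1h2bh, with 13, 13 and 2 counts in sham and 14, 22 and 14 counts in BCP (adjusted p = 0.162). Hist1h2ba, a testis H2B gene, had 0 counts in sham and 1 in each BCP library.

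H3 cluster genes encode the replication-coupled forms of the histone whose tail carries many of the known modifications. All 6 tested H3 rows were higher and past the fold, and so were 5 of the 7 array rows of the H3 type. Hist1h3a (chromosome 17, 43626128 to 43626538) showed the largest log2FC of the cluster genes. It had 1.83, 2.93 and 1.22 CPM in sham and 9.88, 15.2 and 17.3 CPM in BCP, without overlap (log2FC 2.83 ± 0.30, adjusted p = 6.09e-05). Hist1h3f, placed in the chromosome 2 array, was the H3 cluster gene with the highest level and had 8.61, 8.86 and 6.68 CPM in sham against 29.6, 66.3 and 45.5 CPM in BCP. Its BCP libraries were spread widely, and the call was lost without any 1 of the sham libraries (log2FC 2.56 ± 0.39, adjusted p = 0.0123). Some symbols went against the type or place of their rows. The rows named Hist1h2ail1 had the 411-base coding span of H3, and the rows named Hist3h3 lay in the chromosome 17 array. Hist1h2ail1 ENSRNOG00000046434 went from 2.59, 3.0 and 1.62 CPM to 5.15, 7.21 and 7.87 CPM (log2FC 1.5 ± 0.24, adjusted p = 8.27e-05).

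H4 is the partner of H3 in the central tetramer, and its genes encode nearly one protein. The table gives the symbol Hist1h4b to 5 rows with counts and 1 without, on chromosomes 17, 2 and 4, which are told apart here by their gene identifiers. Of the 6 tested H4 cluster genes 5 were higher and 4 passed the fold. Hist1h4b ENSRNOG00000054017 had 6.55, 6.0 and 5.87 CPM in sham and 13.1, 13.5 and 14.9 CPM in BCP, the tightest replicates of the type (log2FC 1.17 ± 0.14, adjusted p = 2.17e-06). This row spans 4444 bases, not the 312 of other H4 rows, and was typed by its name. Hist1h4m had 8.84, 9.49 and 6.01 CPM in sham and 19.3, 30.8 and 25.8 CPM in BCP (log2FC 1.65 ± 0.22, adjusted p = 0.000751). Hist1h4b ENSRNOG00000048215, with 2.21, 3.14 and 1.76 CPM in sham and 2.96, 8.42 and 9.0 CPM in BCP, overlapped between groups and was the member just inside the threshold (log2FC 1.53 ± 0.46, adjusted p = 0.0485). The H4 array row LOC680097, similar to germinal histone H4, stood just outside (log2FC 0.61 ± 0.23, adjusted p = 0.0501). Hist1h4b ENSRNOG00000046636 overlapped as well and was not called (log2FC 0.53 ± 0.45, adjusted p = 0.461).

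**Figure D2:**
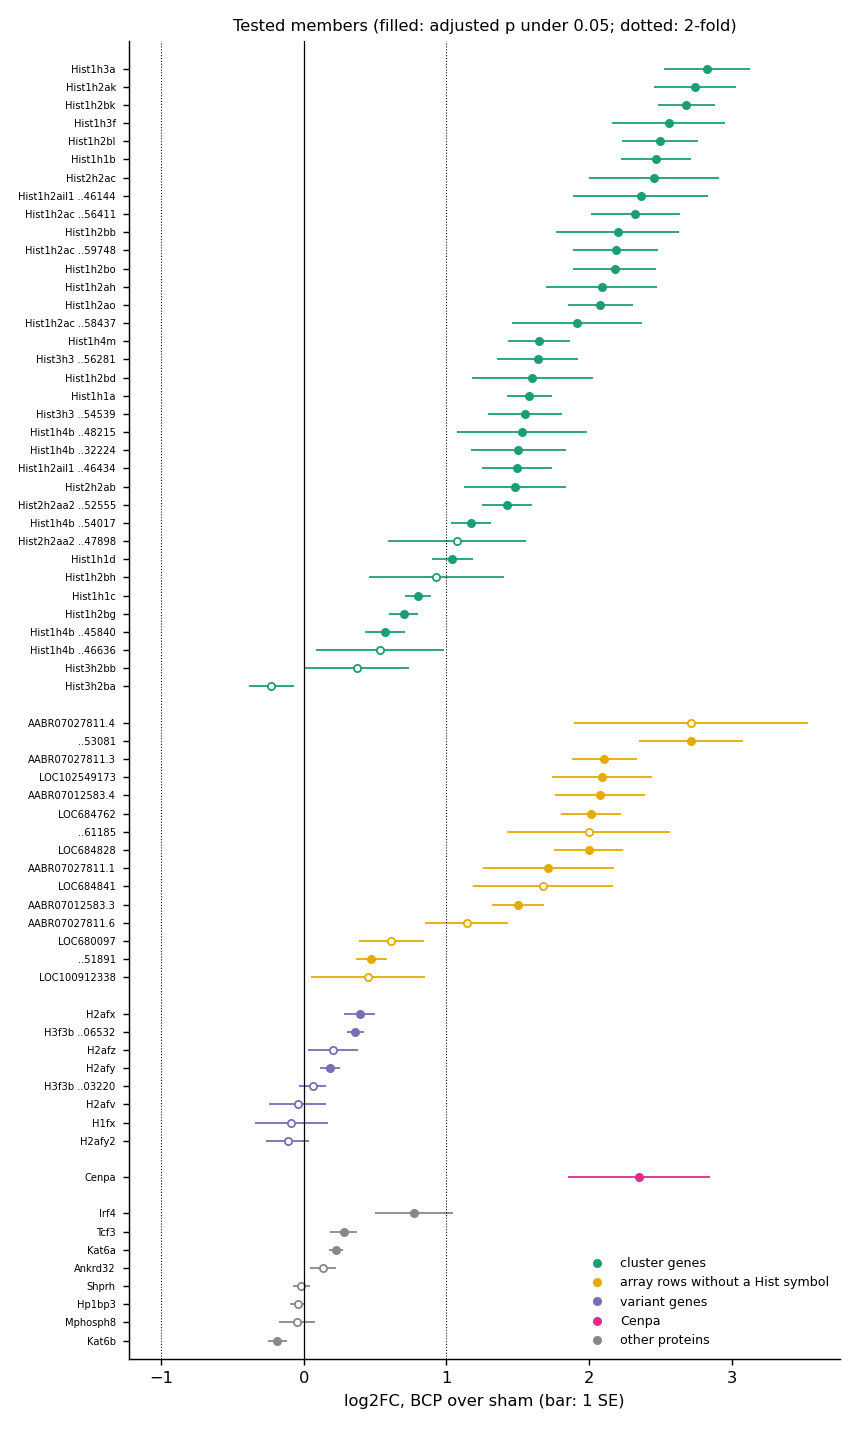
log2FC of BCP over sham (x axis, bar 1 SE) for the 67 tested members, grouped by kind of gene, with shortened gene identifiers where a symbol is shared. Filled points had an adjusted p under 0.05, open points did not, and dotted lines mark 2-fold. Cluster genes ran from -0.22 to 2.83, array rows without a Hist symbol from 0.45 to 2.72, variant genes from -0.11 to 0.39.

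The 19 array rows without a Hist symbol lie between the cluster genes. Of 15 tested, 9 were higher and 8 of these passed the fold, with a median log2FC of 2.0. By DESeq2, 13 of the 15 were called higher. LOC684762, of the H3 type, had 2.82, 2.79 and 1.89 CPM in sham and 8.19, 10 and 12 CPM in BCP (log2FC 2.01 ± 0.21, adjusted p = 3.31e-07). LOC684828, described as similar to histone H1.2, had 2.29, 3.28 and 2.09 CPM in sham and 6.76, 11.3 and 12.5 CPM in BCP (log2FC 2.0 ± 0.24, adjusted p = 9.41e-06). ENSRNOG00000053081, an H3 row of chromosome 2 without a symbol, rested on 8, 10 and 3 counts in sham and 33, 52 and 45 counts in BCP (log2FC 2.71 ± 0.36, adjusted p = 9.74e-06). This row passed the filter on low counts only through its BCP libraries. ENSRNOG00000051891, an H4 row, was called below the fold, with 15.5, 18.4 and 15.1 CPM in sham and 20.1, 23.1 and 24.7 CPM in BCP (log2FC 0.47 ± 0.11, adjusted p = 0.00257). AABR07027811.6, the H4 row with the highest level of these, had 61.1, 69.9 and 49.3 FPKM in sham and 96.3, 182 and 130 FPKM in BCP, without overlap but with wide spread in BCP (log2FC 1.14 ± 0.29 on counts, adjusted p = 0.052). AABR07027809.1, in the chromosome 17 array, had 2, 1 and 3 counts in sham and 8, 11 and 21 counts in BCP and was too low to test.

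When cluster genes and array rows were summed by type in FPKM, the ratio of BCP to sham differed between types. H3 rows summed to 99.0, 103 and 57.6 FPKM in sham and to 271, 493 and 408 FPKM in BCP, a ratio of means of 4.52. H4 rows summed to 274, 313 and 239 FPKM in sham and to 437, 713 and 578 FPKM in BCP, a ratio of 2.09. The ratios of H1, H2A and H2B lay between these, at 2.42, 3.26 and 2.56. H3 made up 13.2%, 13.3% and 9.78% of the summed FPKM in sham and 18.8%, 20.8% and 21.1% in BCP, whereas H4 made up 36.5%, 40.5% and 40.7% in sham and 30.3%, 30.1% and 29.9% in BCP. Neither share overlapped between the groups, and no test was applied to these sums. Many of these rows encode almost identical mRNAs, how reads with several locations were counted is not given in the sources used here, and the split of reads between rows of one type is therefore uncertain.

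**Figure D3:**
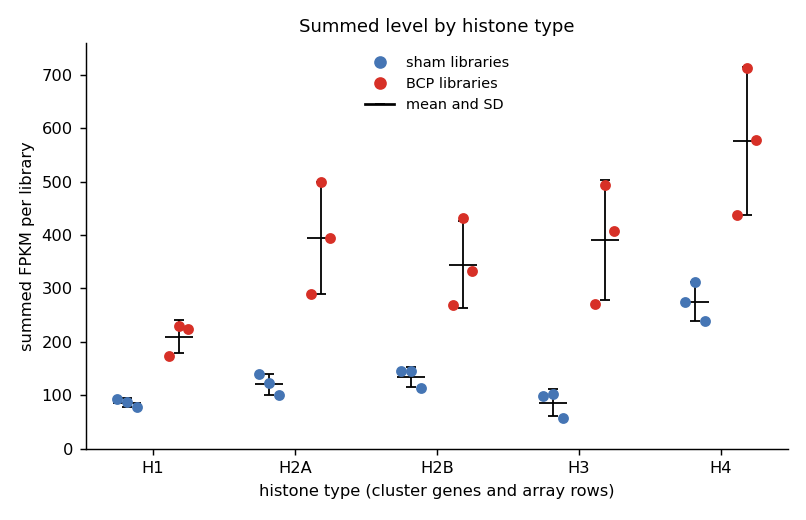
Summed FPKM per library (y axis) of cluster genes and array rows of each histone type (x axis). Blue points are sham libraries, red points BCP libraries, black marks the mean and SD of 3. H4 was the largest sum in every library, and for each type the 3 BCP libraries lay above the 3 sham libraries.

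Position within the genome was not used by the rule for the cluster symbols. The largest array, on chromosome 17 from 43422454 to 44841382, held 42 members, of which 37 were tested and 30 were higher (median log2FC 1.92). The array on chromosome 2, from 198359754 to 198424443, held 10 members, all tested and 8 of them higher (median 1.5). On chromosome 4, between 170092537 and 170767382, only Hist1h4b ENSRNOG00000045840 of 6 members was tested, with 16.9, 16.9 and 18.4 CPM in sham and 20.3, 32.1 and 24.9 CPM in BCP (log2FC 0.57 ± 0.14, adjusted p = 0.00874). The other 5 members there, H2afj among them, are listed at 0 in all 6 libraries.

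Among the gene rows inside the chromosome 17 array that were not members, 9 were tested, their median log2FC was 0.05, and 3 were higher. Of these 3, chosen for naming after their values were seen, AABR07027752.3 (log2FC 1.42 ± 0.26, adjusted p = 0.00027) and AABR07027753.2 (2.0 ± 0.25, adjusted p = 3.67e-05) lay among the histone rows and carry no description or nucleosome term. The second of them spans 381 bases, as H2B rows do. The third called row was Btn2a2, a butyrophilin gene (1.05 ± 0.36, adjusted p = 0.0344). The other 6, the iron regulator Hfe and the zinc-finger genes Zfp322a and Zfp184 among them, were not called and ranged from -0.21 to 0.32. Inside the chromosome 4 array, both tested rows that are not members were higher, the phospholipase B-like gene Plbd1 (1.87 ± 0.37, adjusted p = 0.000724) and Atf7ip (0.25 ± 0.06, adjusted p = 0.00235). The chromosome 2 array holds no other gene row.

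**Figure D4:**
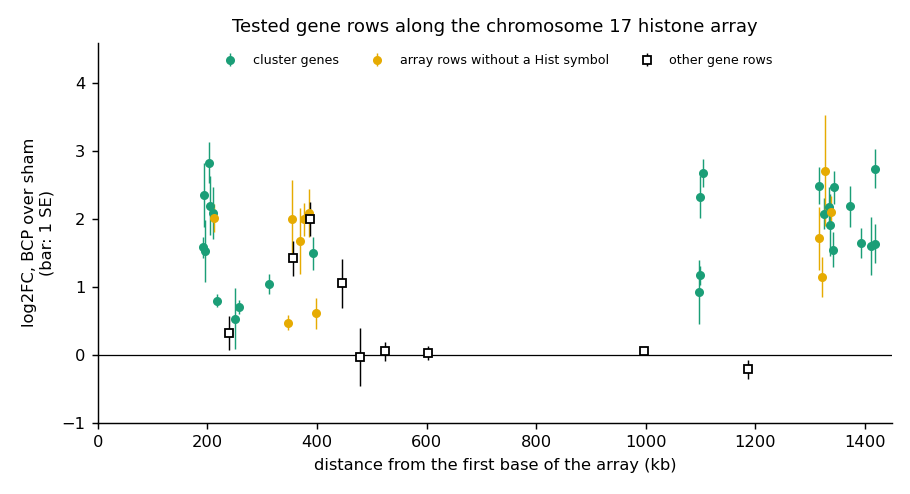
log2FC of BCP over sham (y axis, bar 1 SE) against the distance of each tested gene row from the first base of the chromosome 17 array (x axis, kb). Green points are cluster genes, yellow points array rows without a Hist symbol, open squares other gene rows. The tested histone rows all lay above 0, while 6 of the 9 other rows lay between -0.21 and 0.32.

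H3.3, the replication-independent form of H3, is encoded in the table by a pair of rows named H3f3b. The row ENSRNOG00000006532 had 142, 121 and 124 CPM in sham and 165, 172 and 161 CPM in BCP, a small difference without overlap (log2FC 0.36 ± 0.06, adjusted p = 8.66e-05). The row ENSRNOG00000003220 had 23.8, 23.2 and 21.3 CPM in sham and 22.3, 23.1 and 25.8 CPM in BCP, and was not called (log2FC 0.06 ± 0.09, adjusted p = 0.676). Set against both rows together, the H3 array and cluster rows had 0.701, 0.802 and 0.459 times their FPKM in sham and 1.75, 3.03 and 2.50 times in BCP. In the summed FPKM, H3.3 thus exceeded the clustered H3 in every sham library and was below it in every BCP library. The order in BCP depended on the scaling by length. In CPM the H3 array and cluster rows summed to 111, 199 and 165 in BCP. The H3f3b rows had 165, 172 and 161 CPM (ENSRNOG00000006532) and 22.3, 23.1 and 25.8 CPM (ENSRNOG00000003220) in these libraries. Both H3f3b rows together thus exceeded the clustered H3 sum in BCP replicates 1 and 3, and were below it in BCP replicate 2. In BCP replicate 1 the row ENSRNOG00000006532 alone exceeded that sum.

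H2afx encodes H2A.X, which is phosphorylated at DNA breaks and has mRNAs of both kinds. It had 25.2, 21.2 and 21.9 CPM in sham and 28.6, 34.9 and 26.2 CPM in BCP (log2FC 0.39 ± 0.11, adjusted p = 0.00974). H2afy encodes macroH2A1, a variant of repressed chromatin, and was called by a narrow margin, with 51.3, 57.4 and 51.2 CPM in sham and 59.4, 60.8 and 61.7 CPM in BCP (log2FC 0.19 ± 0.07, adjusted p = 0.0466). Neither call was kept in every fit that left out 1 library: H2afx was called in 4 of 6 and H2afy in 2 of 6. H2afz, the main H2A.Z gene and the last promoter above, had 6.70, 9.28 and 7.02 CPM in sham and 7.43, 8.28 and 10.8 CPM in BCP, overlapping (log2FC 0.21 ± 0.18, adjusted p = 0.430). H2afv, H1fx and H2afy2 had log2FC values of -0.04 ± 0.20, -0.09 ± 0.26 and -0.11 ± 0.15 and were not called. H1foo, H2afj and H2afb3 are listed at 0, and H1fnt, a testis linker histone, had 2 counts in 1 sham library.

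Centromere protein A (Cenpa), the H3 variant that marks centromeres, was the one tested member among the histone-like rows elsewhere. It rose from 2, 3 and 4 counts in sham to 10, 16 and 18 counts in BCP (log2FC 2.35 ± 0.50, adjusted p = 0.00118). With so few sham counts, it passed the filter on low counts only through its BCP libraries. The other 12 histone-like rows elsewhere had too few counts to test. Of these, Hypm, LOC100363125, AC119603.1 and Hils1 had at least 10 counts over all libraries and at most 11 in any 1.

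Of the 13 other proteins with the nucleosome term, 8 were tested, 3 were higher and 1 was lower, none past 2-fold, and the median log2FC was 0.06. Among all tested genes, 15.8% were higher and 12.1% were lower, and 1 of 8 lower is near that second share. Kat6a, a histone acetyltransferase, had 202, 186 and 195 CPM in sham and 230, 233 and 220 CPM in BCP (log2FC 0.23 ± 0.05, adjusted p = 0.00106). Its paralogue Kat6b was the one member called lower, with 65.7, 64.3 and 73.8 CPM in sham and 59.1, 59.3 and 61.1 CPM in BCP (log2FC -0.18 ± 0.07, adjusted p = 0.0454). Irf4, a transcription factor of lymphocytes, rose from 1.90, 1.54 and 2.23 CPM to 2.37, 3.36 and 3.93 CPM (log2FC 0.77 ± 0.27, adjusted p = 0.0397), and Tcf3, a factor of lymphocyte development, had a log2FC of 0.28 ± 0.09 (adjusted p = 0.0293). Of the 6 fits that left out 1 library, 1 called Kat6b, 2 called Irf4 and 2 called Tcf3. Hp1bp3, the most abundant of them per length, had 50.2, 45.8 and 51.5 FPKM in sham and 48.2, 49.1 and 50.1 FPKM in BCP and was not called (adjusted p = 0.591). The protamine and transition protein genes Prm1, Prm2, Prm3, Tnp1 and Tnp2, which replace histones in sperm, are listed at 0 in every library.

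Genes that act beside the histones were read from the same fit. In a list of 26 genes of S phase and DNA replication, 17 were higher (12 past the fold), 1 was lower, and the median log2FC was 0.71, beside 15.8% and 12.1% of all tested genes. Mcm3, a subunit of the replicative helicase, had 6.17, 5.16 and 4.05 CPM in sham and 17.5, 24.6 and 20.5 CPM in BCP (log2FC 2.03 ± 0.16, adjusted p = 1.86e-08). Mcm5, of the same complex, rose by a log2FC of 2.21 ± 0.19 (adjusted p = 1.11e-07), Uhrf1, which maintains DNA methylation behind the fork, by 1.79 ± 0.16 (adjusted p = 6.17e-08) and Rrm1, the large subunit of ribonucleotide reductase, by 0.72 ± 0.08 (adjusted p = 4.3e-07). The gene called lower was E2f1, a transcription factor of the G1/S transition, with 40, 42.0 and 35.8 CPM in sham and 32.7, 30.3 and 29.8 CPM in BCP (log2FC -0.34 ± 0.08, adjusted p = 0.00387). By library, the list summed to 309, 299 and 268 CPM in sham and to 407, 479 and 420 CPM in BCP. The third sham library was thus the lowest and the second BCP library the highest, as for the cluster genes. That order was not particular to this list, since the G2 and mitosis genes and the T cell markers below had it too.

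The 18 genes of G2 and mitosis found in the table were nearly all called, 17 higher and 16 of these past the fold, with a median log2FC of 2.11. The shares of all tested genes were 15.8% higher and 6.35% higher with the fold. The list summed to 99.1, 99.5 and 56.8 CPM in sham and to 252, 397 and 387 CPM in BCP. Tpx2, a spindle assembly factor, had a log2FC of 2.09 ± 0.18 (adjusted p = 2.26e-07), Cenpe, a kinetochore motor, of 1.44 ± 0.16 (adjusted p = 1.12e-06), Bub1, a spindle checkpoint kinase, of 1.71 ± 0.20 (adjusted p = 5.45e-06) and Birc5, a subunit of the chromosomal passenger complex, of 2.65 ± 0.37 (adjusted p = 4.25e-05). Mki67, a marker of cycling cells, had 16.6, 18.6 and 5.60 CPM in sham and 70.4, 119 and 108 CPM in BCP (log2FC 2.88 ± 0.49, adjusted p = 0.0174).

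The machinery that makes and trims replication-dependent histone mRNAs showed smaller values. Of its 15 genes 5 were higher, 0 passed the fold, 0 were lower (1 at an unadjusted p under 0.05 by edgeR and 0 by DESeq2), and the median log2FC was 0.06. The shares of all tested genes were 15.8% higher, 6.35% higher with the fold and 12.1% lower. Slbp, the stem-loop binding protein, had 27.7, 24.4 and 22.7 CPM in sham and 24.4, 25.5 and 25.8 CPM in BCP, so the groups overlapped (log2FC 0.02 ± 0.09, adjusted p = 0.894). Npat, the coactivator of histone gene transcription, was not called either (log2FC 0.10 ± 0.07, adjusted p = 0.288). Zcchc6, a uridyltransferase of histone mRNA decay, had 109, 102 and 93.2 CPM in sham and 129, 134 and 137 CPM in BCP (log2FC 0.40 ± 0.06, adjusted p = 2.38e-05). Casp8ap2 (FLASH), a 3′ end processing factor, had a log2FC of 0.31 ± 0.07 (adjusted p = 0.00371) and Cpsf3, the endonuclease, of 0.21 ± 0.06 (adjusted p = 0.00871). The remaining pair of calls were Cpsf2 (0.16 ± 0.06, adjusted p = 0.0331) and Lsm10 (0.52 ± 0.18, adjusted p = 0.0371).

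Of 22 histone chaperones and exchange factors 9 were higher, 2 passed the fold and 0 were lower, by edgeR at an unadjusted p as well (0) and by DESeq2 (0), with a median log2FC of 0.14. Among all tested genes, 15.8% were higher and 6.35% were higher with the fold, and 2 of 22 is near that second share. The 2 past the fold were Asf1b, the chaperone of H3 and H4 found in cycling cells, with 0.457, 0.558 and 0.338 CPM in sham and 1.60, 2.14 and 2.19 CPM in BCP (log2FC 2.12 ± 0.38, adjusted p = 0.000225), and Hjurp, the chaperone of Cenpa (1.56 ± 0.27, adjusted p = 0.00015). Asf1b passed the filter on low counts only through its BCP libraries. Its paralogue Asf1a had 22.9, 19.6 and 19.8 CPM in sham and 21.0, 21.2 and 19.1 CPM in BCP, overlapping (log2FC -0.02 ± 0.10, adjusted p = 0.900). Npm1, a nucleolar chaperone, rose from 86.4, 78.6 and 83.4 CPM to 115, 118 and 116 CPM (log2FC 0.49 ± 0.05, adjusted p = 6.91e-07). Daxx, a chaperone of H3.3, rose from 29.6, 28.2 and 29.2 CPM to 40, 50.7 and 40.5 CPM (log2FC 0.59 ± 0.09, adjusted p = 5.18e-05). Without the second BCP library, 5 of the list were called higher.

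**Figure D5:**
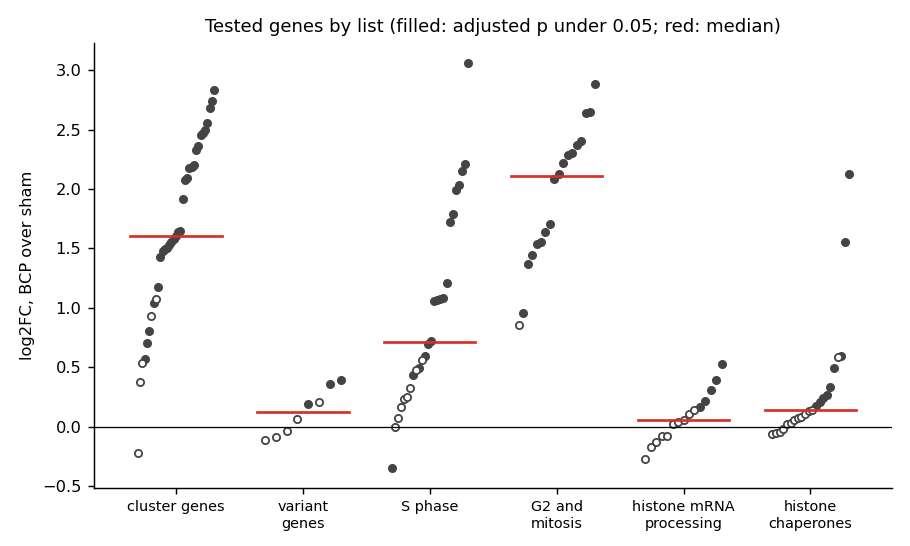
log2FC of BCP over sham (y axis) of the tested cluster and variant genes and of the tested genes of each list (x axis), sorted within a list. Filled points had an adjusted p under 0.05, and the red line is the median. Medians were 1.60, 0.12, 0.71, 2.11, 0.06 and 0.14 from left to right.

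Markers of several cell types differed between the groups, some higher and some lower in BCP. Among all tested genes, 15.8% were higher and 12.1% were lower. Of 10 microglial markers 8 were higher, with a summed level of 237 to 321 CPM in sham and 914 to 1137 CPM in BCP. Of the T cell markers all 6 found were higher, with 0.878 to 1.98 CPM in sham and 23.3 to 35.6 CPM in BCP. Cd3d was at 0 in every sham library, and Cd2, Cd3e, Cd3g and Cd8a had at most 6 counts in any. These rows passed the filter on low counts only through their BCP libraries, so they could be tested only when higher in BCP. All 6 oligodendrocyte markers were lower (38260 to 43485 CPM in sham, 27382 to 30563 CPM in BCP), as were 4 of 8 neuronal markers (8341 to 8443 CPM, 7075 to 7875 CPM) and 2 of 5 markers of oligodendrocyte precursors (423 to 445 CPM, 396 to 413 CPM). Of 6 astrocyte markers 1 was higher and 2 were lower (4035 to 4313 CPM, 5834 to 7591 CPM). Among markers of endothelium (305 to 312 CPM, 294 to 312 CPM), of meninges and fibroblasts (33.3 to 55.6 CPM, 46.1 to 103 CPM, Col1a2 at 0 throughout) and of nerve root (75.5 to 88.8 CPM, 59.2 to 74.7 CPM), 0 of 4, 0 of 4 and 0 of 3 tested were called by edgeR, with 0, 0 and 1 at an unadjusted p under 0.05 and 0 in each by DESeq2. The first BCP library stood apart for Aqp4, an astrocyte water channel, with 2413 CPM against 360 and 361 CPM in the other BCP libraries, and for Col1a1, a fibroblast collagen, with 84.0 CPM against 33 and 26.5 CPM, and it alone set the upper ends of the astrocyte and meningeal sums. The epithelial markers summed to 1.14 to 2.09 CPM in sham and 2.0 to 3.04 CPM in BCP, and Krt18, the 1 that could be tested, was not called (adjusted p = 0.164). In bulk tissue, more cells of a type and more histone mRNA per cell cannot be told apart, and the part of these cell types in the histone values was not tested.

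Of the 47 called members, 34 were called in each of the 6 fits that left out 1 library, 22 of 30 cluster genes and 9 of 9 array rows among them, and the sign was kept for all 47. Among the cluster genes, the calls that rested most on single libraries were Hist1h4b ENSRNOG00000048215 and Hist1h2ac ENSRNOG00000058437, each called in 1 of the 6 fits, and Hist1h2bb and Hist1h4b ENSRNOG00000032224, each called in 2. Hist1h3f was called in 3 of the 6. Hist1h2ah and Hist1h2bd, both lost without the second sham or the third BCP library, and Hist1h4b ENSRNOG00000045840, lost without the first or the second sham library, were each called in 4. The deposited table also has overlapping rows: 6 of the cluster genes and array rows overlap another gene row, and the row Hist1h2bo spans 37373 bases that hold 4 other histone rows, so its value (log2FC 2.18 ± 0.29, adjusted p = 0.000222) may share reads with theirs.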

How the data were processed

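Libraries were made from total RNA after removal of ribosomal RNA with a strand-specific kit and sequenced on an Illumina instrument. Per the labels and the study's methods, Seqtk was used to filter the reads, HISAT2 2.0.4 to align them (genome build Rnor_6.0) and StringTie 1.3.0 to quantify them. The authors deposited raw read counts and FPKM values per gene and per lncRNA for each of the 6 libraries. Which program made the counts, whether it used strand, and what it did with multi-mapping reads is not given in the sources used here. Columns of the authors' own comparison (fold changes and p-values) were not used.

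Counts were fitted with edgeR 4.0.16 (R 4.3.3; TMM factors, filterByExpr by group, robust quasi-likelihood fit, group as the only term). P-values were adjusted over all 14908 tested genes. The typical biological coefficient of variation was 7.72%. Precision is set by 3 libraries a group and 11779485 to 15004290 counts a library. Replicate libraries of a group differed by more than sampling noise in each pair. CPM used TMM library sizes, and deposited FPKM served for levels between genes and for sums, ratios and shares by kind and type of gene, without a test. The code was tested on simulated data.

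Members and lists were chosen with earlier results of these data known, so no test was made over a set. Rows found by annotation alone were divided by position (arrays: gaps up to 1000000 bases and at least 5 members) and by a hand list of 13 other proteins, which departs from a planned split on the word histone in the description. Histone type came from the most frequent coding span of rows with 1 type in the KEGG annotation (312 bases H4, 381 H2B, 393 H2A, 411 H3) and otherwise from the name. Of the annotated rows with such a span, 22 of 22 had that type. The rows that set the spans are among these 22, so this is no independent check. Values per library were given for called members with the smallest p (up to 12 a kind), the 5 of a kind with the highest mean FPKM, members next to the threshold, and up to 4 called genes per list. Where this gave more than a paragraph could carry, counts and ranges stand for the rest, and other genes, such as Slbp, Npat, Asf1a and Mki67, were named after their values were seen.

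Alternatives were DESeq2 1.42.0, other scalings, other count filters, a replicate block and leaving out each library. Sequences are from RefSeq (GRCr8). lncRNA rows were used only where they overlap a histone row.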

Additional observations from a re-analysis of the deposited data

Results flagged for a closer look

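In the lncRNA table, which no comparison above used, 18 rows overlapped 14 of the cluster genes and array rows. Rows overlapping other members are not described here. Of the 18, 5 had at least 10 counts in each BCP library and all 3 BCP libraries above all 3 sham libraries, and they are named for that. The share of all lncRNA rows that met this rule was not computed. Among all tested genes, 21.7% had all BCP libraries above all sham libraries. NONRATT012479.2, which overlaps Hist1h2ah, had a mean of 140 CPM of the lncRNA total in BCP and 28.4 in sham. Its counts were 89, 84 and 24 in sham and 179, 419 and 289 in BCP, close to those of Hist1h2ah (92, 87 and 51, then 185, 436 and 301). NONRATT012538.2, overlapping Hist1h2bo, had 79.1 CPM in BCP and 23.3 in sham. NONRATT015585.2 and NONRATT015587.2, both overlapping AABR07012583.3, had 132 and 13.9 CPM in BCP and 45.0 and 6.27 in sham. NONRATT021920.2, overlapping Hist1h4b ENSRNOG00000045840, had 44.4 CPM in BCP and 33 in sham. Whether the same reads were counted in both tables was not tested.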

How the results depend on the processing

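The counts of members and cluster genes called higher, the median log2FC of the cluster genes (1.42 to 1.84 when 1 library was left out) and the ratio of their summed levels (2.12 to 2.85) stayed within 1.5 times the value reported under every setting run, and no called member changed sign. Members past the fold numbered 28 (at least 10 counts in every library) to 40 (DESeq2), and 30 to 38 when 1 library was left out. The 1 member called lower, Kat6b, was lost (0) with DESeq2, RLE factors, library size only, at least 10 counts in every library, the replicate block, and in the fits leaving out 1 library except that without the second sham library (0 to 1). Variant genes called higher ranged from 1 (without the second BCP library) to 3, and their median log2FC from 0.030 (without the third BCP library) to 0.16 when 1 library was left out, and from 0.06 (no filter on low counts) to 0.17 (library size only) under the other settings. Genes of histone mRNA processing called higher fell from 5 to 3 with DESeq2 and were 3 to 5 when 1 library was left out (3 without the second sham, the first BCP or the second BCP library), and 1 was called lower with upper-quartile factors. Chaperones called higher, 9 as reported, were 5 (without the second BCP library) to 8 when 1 library was left out and 6 to 11 under the other settings. Over all genes, the 16 called lower with fold became 37 with no filter and 6 with at least 10 counts in every library, and were 16 to 33 when 1 library was left out (25 without the second sham and 33 without the first BCP library). Genes called at the adjusted p alone numbered 2352 higher and 1805 lower, 2673 and 1262 with library size only, and 2134 and 2401 with upper-quartile factors. The causes were not tested. Replicate numbers are shared between the groups, but same-numbered libraries did not deviate together (r = -0.11, 0.04 and -0.04 across genes), so the numbers were not taken as pairs. With the replicate block, 45 members were called higher and 36 with fold. The third sham and second BCP libraries, lowest and highest in cluster genes, were left out together as an alternative chosen after seeing the data.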
